A study of Mus musculus with 38 samples.

Results

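The 14 libraries of day 7 were ordered by Lcn2, a transcript whose protein is measured in stool and tissue as a read-out of gut inflammation, and every other expressed gene was set against that order. They are all of the day 7 libraries among the 38 of the series, each from 1 animal, 7 of them WT and 7 KO. All 14 animals were male C57BL/6 mice aged 10 to 12 weeks that carried floxed Hk2 alleles and drank water with 1.5% dextran sodium sulfate (DSS). The KO mice also carried Cre recombinase under the Villin promoter, which is active in intestinal epithelium, so Hk2 is meant to be lost from epithelial cells only, and the WT mice were littermates without that deletion. Both genotypes shared cages. The sample labels call the material isolated intestinal epithelial cells, whereas the text of the series calls it colon tissue. Libraries are named as in the labels, by day, genotype and animal number, d7_KO_420 for example. The libraries were selected on their day, and their order was chosen by the level of Lcn2, whose own values are therefore given as a description only.

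DSS injures the lining of the colon, lets bacteria reach the tissue, and draws neutrophils and monocytes into it. Lcn2 encodes lipocalin-2, which binds bacterial iron carriers and is made both by neutrophils and by inflamed epithelium. Hk2 encodes hexokinase 2, an inducible enzyme of the first step of glycolysis. In bulk RNA, fewer cells of a type and less RNA per cell cannot be told apart.

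Lcn2 spread over 170-fold among animals that had the same treatment. It stood at 143 CPM (counts-per-million, scaled by trimmed mean of M values, TMM) in d7_KO_420, 94.0 in d7_WT_356 and 65.4 in d7_WT_419. The next library, d7_KO_422, had 10.8 CPM, followed by 10.5 in d7_WT_393, 9.49 in d7_WT_361, 9.40 in d7_KO_368, 8.74 in d7_WT_431 and 7.93 in d7_KO_367. The lowest were d7_KO_366 at 3.80, d7_WT_370 at 3.44, d7_KO_421 at 2.20, d7_WT_386 at 1.82 and d7_KO_423 at 0.842 CPM. Both genotypes therefore ran from the bottom of the order to the top. The 3 highest libraries stood apart: a gap of 2.59 log2 units lay below them, while no other gap was over 1.07 in a range of 7.34. In 14 of the 15 libraries of day 3, Lcn2 was between 0 and 0.300 CPM. The remaining one, the library labelled d3_KO_345, had 0.967.

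**Figure D1:**
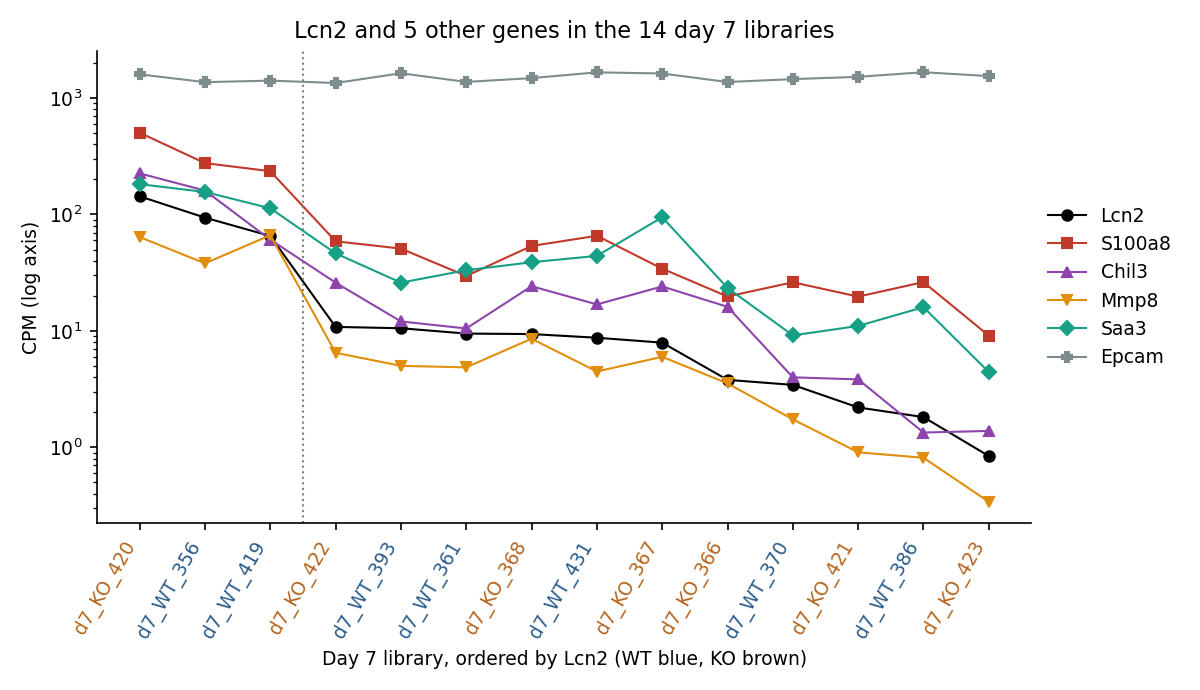
CPM on a log axis of Lcn2, S100a8, Chil3, Mmp8, Saa3 and Epcam (1 line and marker each) in the 14 day 7 libraries, ordered from highest to lowest Lcn2, with WT names in blue and KO names in brown. The dotted line marks the gap below the 3 highest libraries, where S100a8 falls from at least 235 to at most 65.7 CPM, while Epcam stays nearly level.

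For each gene, the slope is its log2 change per log2 unit of Lcn2 with genotype held equal, so a slope of 1 means a change in proportion to Lcn2. Adjusted p-values are from edgeR's quasi-likelihood test with Benjamini-Hochberg adjustment over all 15583 genes tested, and a gene was called at an adjusted p under 0.05. With all 14 libraries, 1135 genes were higher at higher Lcn2 (7.28% of those tested) and 780 were lower (5.01%). Most slopes were shallow, with a median of 0.18 among the genes called higher and -0.13 among those called lower. An absolute slope of at least 0.5 was reached by 88 of the higher and 9 of the lower genes. In 1011 of the 1135 higher genes and 741 of the 780 lower ones, the slope had the same sign in WT alone and in KO alone. Those libraries are the same ones that gave the calls, so agreement in sign is partly built in and is not a replication.

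The 3 libraries that stood apart also carried many of these calls. Among the 1135 higher genes, 294 (25.9%) had all 3 of them above each of the other 11 libraries, against 364 of all genes tested (2.34%). Among the 780 lower genes, 171 (21.9%) had all 3 below the other 11, against 324 of all genes (2.08%). Lcn2 chose those 3 libraries, so these shares describe the shape of the pattern and test nothing. When only the other 11 libraries were fitted, 2 of 15773 genes were called (0.0127%), both higher, and 556 had an unadjusted p under 0.05. Of the higher genes that could be fitted, 1082 of 1126 had the same sign in the 11, as had 779 of 780 lower genes. The 11 are among the 14 libraries that gave the calls, so this agreement is partly built in and tests nothing. On simulated counts with 15583 genes, the 14 libraries recovered 91% of genes given a slope of 0.25 and 99% of those given 0.5, and the 11 recovered 41% and 87%. Those counts were drawn independently for each gene, with no shifts shared by many genes of a library. The shares recovered therefore need not hold for the real data.

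**Figure D2:**
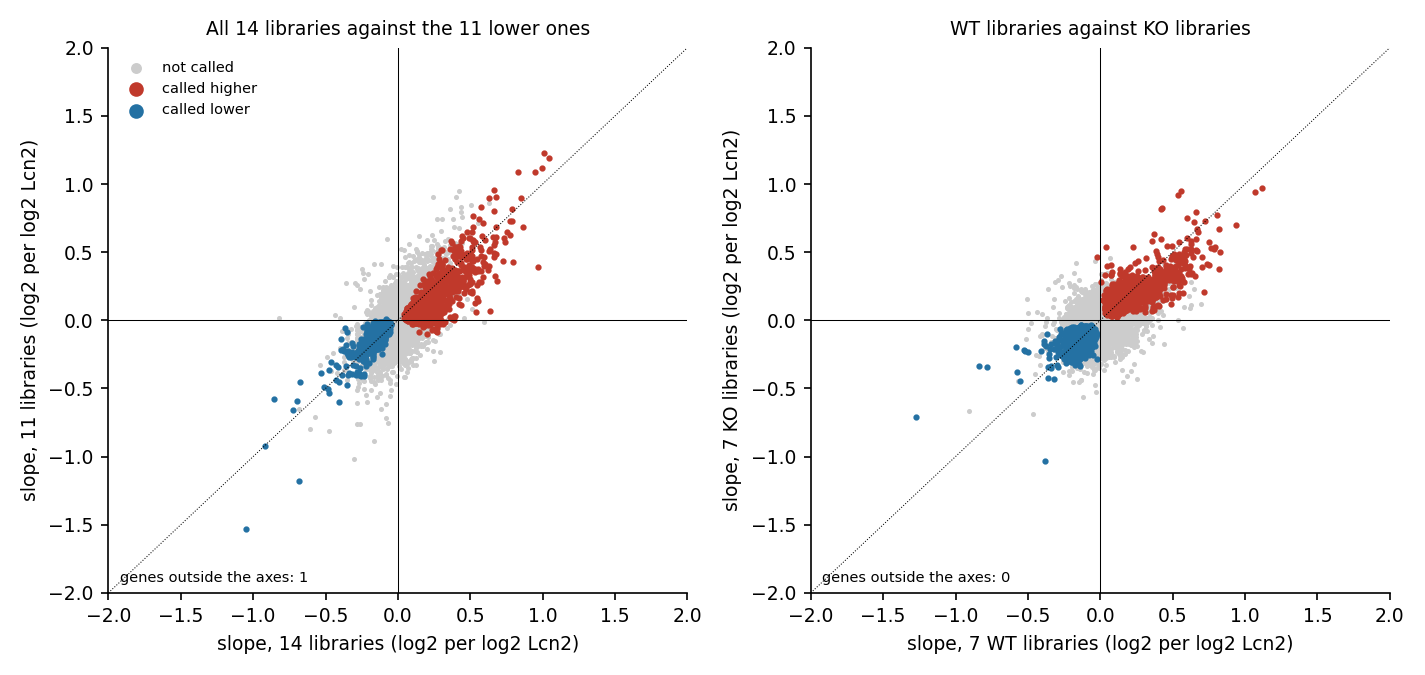
Slope of each gene (log2 change per log2 unit of Lcn2), each point 1 gene: on the left all 14 libraries on the x axis against the 11 lower ones on the y axis, on the right the 7 WT libraries against the 7 KO libraries. Genes called higher with 14 libraries are red (1135), genes called lower are blue (780) and the rest grey. Most red and blue points keep their sign on both axes, which is partly built in because the same libraries gave the calls. The dotted line marks equal slopes, and 1 gene lies outside the axes on the left.

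The 2 genes called with and without the 3 highest libraries were Chil3 and Mmp8. Chil3 encodes a chitinase-like protein of myeloid cells, and Mmp8 encodes the collagenase stored in neutrophil granules. Together with Retnlg, a neutrophil transcript, and Saa3, an acute-phase protein made by epithelium and macrophages, they show how closely single genes followed the order. The 250 bases before the start site of these 4 genes are given as examples from genes that moved together. Unlike those of Lcn2, S100a8 and Cxcl2, these windows lie outside the gene as the files define it. The windows of S100a9 and Trem1 do so too and are not shown. The 4 given are RefSeq sequences of build GRCm38.p6, read 5′ to 3′ along the gene. Capitals mark matches on either strand to a C/EBP motif (TTNNGCAA), a STAT motif (TTCNNNGAA) or an ETS motif (AGGAAGT). An NF-kB motif, whose letters are not given here, was searched for in the same way and has no match in these 4.
Chil3 (chr3:106167565-106167814, minus strand): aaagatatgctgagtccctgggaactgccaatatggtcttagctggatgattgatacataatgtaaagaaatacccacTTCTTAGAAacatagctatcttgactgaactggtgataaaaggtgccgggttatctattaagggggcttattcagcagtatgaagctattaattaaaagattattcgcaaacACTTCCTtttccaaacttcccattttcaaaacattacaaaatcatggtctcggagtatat
Mmp8 (chr9:7558179-7558428, plus strand): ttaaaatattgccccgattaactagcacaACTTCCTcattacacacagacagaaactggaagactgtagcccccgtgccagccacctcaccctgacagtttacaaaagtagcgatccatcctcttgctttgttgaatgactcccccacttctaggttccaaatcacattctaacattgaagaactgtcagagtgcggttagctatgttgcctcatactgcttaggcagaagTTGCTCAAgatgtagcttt
Retnlg (chr16:48872358-48872607, plus strand): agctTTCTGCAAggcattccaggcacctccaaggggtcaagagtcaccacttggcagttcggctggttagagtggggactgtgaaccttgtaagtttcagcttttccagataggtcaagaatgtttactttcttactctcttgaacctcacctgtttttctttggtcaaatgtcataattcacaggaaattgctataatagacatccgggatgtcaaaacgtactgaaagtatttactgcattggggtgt
Saa3 (chr7:46715677-46715926, minus strand): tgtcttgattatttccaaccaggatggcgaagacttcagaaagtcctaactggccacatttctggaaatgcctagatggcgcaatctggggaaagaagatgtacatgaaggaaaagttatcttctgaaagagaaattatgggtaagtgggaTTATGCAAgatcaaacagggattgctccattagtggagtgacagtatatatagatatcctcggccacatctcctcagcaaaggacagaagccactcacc
Mmp8, Retnlg and Saa3 each held 1 C/EBP match, Chil3 held 1 STAT match, and Chil3 and Mmp8 held 1 ETS match each. Such short motifs are common. Of the 32851 promoters in the RefSeq table, 9.56% held the C/EBP motif in this window, 7.02% the STAT motif, 7.69% the ETS motif and 7.25% the NF-kB motif. Among the 13903 promoters of genes tested these shares were 7.90%, 6.25%, 7.83% and 8.83%. Among the 1113 promoters of genes called higher the shares were 9.25%, 8.63%, 11.6% and 11.2%, and among the 748 of genes called lower 11.6%, 6.28%, 6.55% and 6.55%. Promoters could be matched for 10920 of the tested symbols. A match is a run of letters and says nothing about binding.

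Chil3 was at 226 CPM in d7_KO_420, 160 in d7_WT_356 and 60.8 in d7_WT_419, and between 1.34 and 25.98 CPM (median 12.1) in the other 11. No overlap was left between these sets. Its slope was 1.01 (SE 0.061, edgeR adjusted p = 2.11e-07), with 1.07 in WT, 0.94 in KO and 1.23 in the 11 (adjusted p = 0.00392). Mmp8 was at 66.3 CPM in d7_WT_419, 64.0 in d7_KO_420 and 38.1 in d7_WT_356 and at 0.341 to 8.57 in the rest. The slope of Mmp8 was 1.05 (SE 0.061, adjusted p = 2.07e-07), and 1.19 in the 11 (adjusted p = 0.00162). Within the 11 libraries, both genes thus moved at least as steeply as over the full range.

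Of the 33 gene lists, that of neutrophils had the largest share called. Of 15 tested, 13 were higher and 0 lower (background 7.28%), with a median slope of 0.59 against 0.00 over all genes. S100a8, a subunit of calprotectin, ran from 26.2 CPM (lowest) through 50.9 (median) to 276 (highest) in WT and from 9.10 through 34.2 to 504 in KO. All 3 of its highest values were in the 3 libraries of highest Lcn2. The slope of S100a8 was 0.73 (SE 0.044, adjusted p = 2.07e-07), and in the 11 it was 0.61 (adjusted p = 0.120). S100a9, its partner, had a slope of 0.68 and ranged from 13.3 CPM in d7_KO_423 to 701 in d7_KO_420. Retnlg had a slope of 0.79, with 52.5 to 82.9 CPM in the 3 highest libraries and 1.16 to 15.4 in the rest. The steepest slope of any gene called was that of Ngp, a granule protein of immature neutrophils, at 1.59 (SE 0.12). Ngp stood at 185 CPM in d7_KO_420, 96.9 in d7_WT_356 and 20.2 in d7_WT_419, and between 0.0185 and 8.07 in the others. The lowest of these lies below the 0.0495 to 0.119 CPM that 3 counts correspond to.

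The remaining called genes of the list mostly had smaller slopes. Il1r2, a decoy receptor for interleukin-1, had a slope of 0.73, Mmp9 0.74, Trem1 0.59, Clec4e 0.49, Cxcr2 0.46, Clec4d 0.42, Ltf 0.39 and Ly6g 0.28. Cd177 (slope -0.07, adjusted p = 0.232) and Csf3r (0.25, adjusted p = 0.273) were not called, and Camp was too low to test. Cd177 was at 126 to 317 CPM at day 7 and already at 151 to 259 in 14 day 3 libraries, where S100a8 had a median of 0.0824. Ly6g too was present at day 3, at 8.14 to 55.4 CPM. Summed over the list, neutrophil markers made up 1427 to 2145 CPM in the 3 highest libraries and 374 to 628 in the others. The count of 13 was 1, Mmp8, without the 3 highest libraries, and 8 without d7_WT_356 alone.

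Because neutrophil markers followed Lcn2 so closely, the 2 could not be told apart. The mean log2 CPM of the neutrophil list was 6.13, 5.63 and 5.46 in the 3 highest libraries and 1.61 in d7_KO_423, the lowest. With that mean as a further covariate, edgeR called 0 genes for Lcn2 and 960 had an unadjusted p under 0.05. Genes of the neutrophil list are part of that mean, so for them this fit tests nothing. Markers of the epithelium showed no such movement. Of 16 tested, 0 were called in either direction and the median slope was 0.02, and their sum was 20361 to 26529 CPM in all 14 libraries. Epcam, a surface protein of epithelial cells, had a slope of -0.01 (adjusted p = 0.717).

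Markers of other cell types were measured as well, against a background of 7.28% higher and 5.01% lower over all genes. Monocyte and macrophage genes were higher in 5 of 16: Itgam (slope 0.51), Ly6c2 (0.49), Csf1r (0.30), Cd14 (0.28) and Cd68 (0.24). The macrophage genes Adgre1, C1qa, C1qb, C1qc and Mrc1 were not called, with slopes of 0.10 to 0.27. The median slope of the list was 0.23. The count of 5 was 1 without d7_WT_356, 2 without d7_WT_386 and 0 without the 3 highest libraries. The sum of the list ran from 99.4 to 693 CPM, and its highest value was in a library outside the top 3. Among T and intraepithelial lymphocyte genes 1 of 16 was called (Cd4, 0.22), and among B and plasma cell genes 0 of 9. Fibroblast genes had 0 of 12 called with a median slope of 0.23, endothelial genes 1 of 5 (Vwf) and smooth muscle genes 1 of 2 (Tagln). What part these cells had in the slopes of other genes was not tested. Hbb-bs, a haemoglobin chain of red cells, was among the steepest genes (slope 0.68, adjusted p = 0.0110), with 333 CPM in d7_KO_420 and 4.53 to 105 in the other libraries. Without d7_KO_420 its adjusted p was 0.166.

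**Figure D3:**
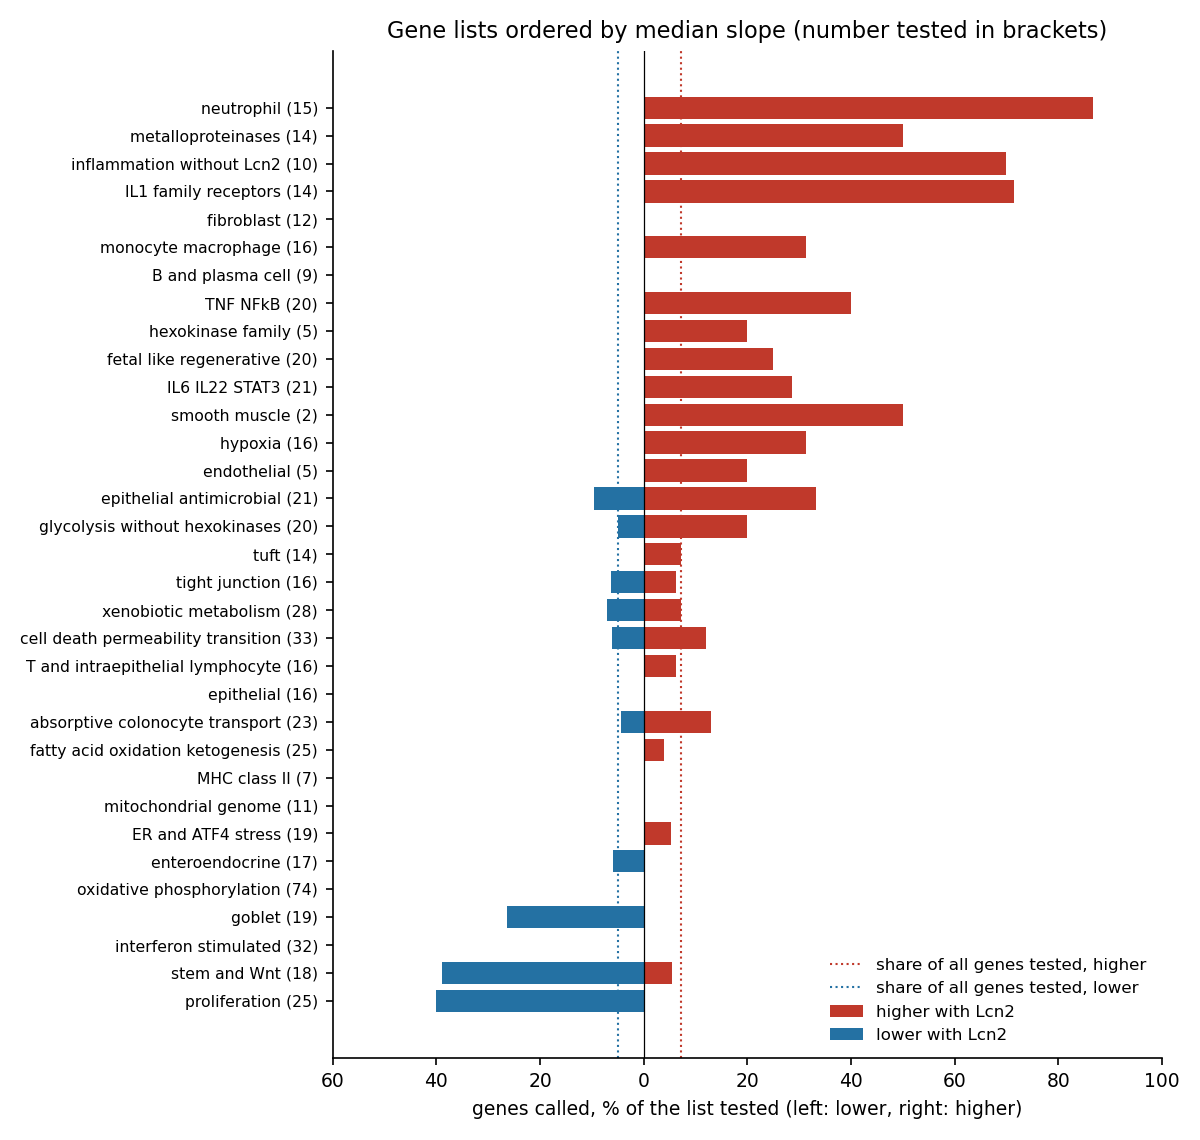
Share of each gene list that was called at an adjusted p under 0.05, higher with Lcn2 to the right (red) and lower to the left (blue), in 14 libraries, with lists ordered by median slope and the number tested in brackets. The dotted lines mark the shares over all genes tested, 7.28% higher and 5.01% lower; the neutrophil list (13 of 15) reaches farthest to the right and the proliferation list (10 of 25) farthest to the left.

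Many interleukin-1 genes were higher at higher Lcn2. Of 14 interleukin-1 family ligands and receptors tested, 10 were higher and 0 lower (background 7.28% and 5.01%), with a median slope of 0.27. Il1a, an alarm cytokine, was at 54.9 to 90.6 CPM in the 3 highest libraries and 1.57 to 49.3 in the rest (slope 0.67, adjusted p = 0.0150, and 0.0564 without d7_WT_356). Il1b ranged from 16.9 CPM in d7_WT_361 to 306 in d7_WT_419. Its level in d7_KO_422, 228 CPM, lay among those of the top 3, so the groups overlapped (slope 0.38, adjusted p = 0.0400). Il18rap, Il18r1, Il33, its receptor Il1rl1 and Il1f9 (interleukin-36 gamma) were called too. The antagonist Il1rn (0.15) and the receptor partner Il1rap (0.20) rose less steeply than the decoy Il1r2. None of these was called in the 11 libraries, and the count was 3 without d7_WT_356, 4 without d7_WT_386, 5 without d7_KO_420 and 6 without d7_WT_419.

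Among TNF and NF-kB genes, 8 of 20 were higher and 0 lower (background 7.28% and 5.01%). Csf3, the growth factor of neutrophils, had a slope of 0.99: its level was 9.01 to 10.7 CPM in the 3 highest libraries and 0.0200 to 2.06 in the others. Its lowest value lies below the 0.0495 to 0.119 CPM that 3 counts correspond to. Cxcl2, a neutrophil chemokine, stood at 398, 200 and 250 CPM in d7_KO_420, d7_WT_356 and d7_WT_419 and at 15.6 to 69.1 elsewhere (slope 0.56, adjusted p = 0.000541). Cxcl5 (0.37), Zc3h12a (0.24), Ier3 (0.23), Rel (0.20), Nfkbie (0.18) and Birc3 (0.16) were also called. Tnf (0.13, adjusted p = 0.178) and Cxcl1 (0.14, adjusted p = 0.124) were not. Without d7_KO_420 the count was 3, without d7_WT_356 it was 4, and without the 3 highest libraries it was 0.

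Of 21 genes of interleukin-6, interleukin-22 and STAT3 signalling, 6 were higher and 0 lower (background 7.28% and 5.01%). They were Osm (slope 0.55), Il6ra (0.28), Socs3 (0.20), Il22ra1 (0.18), Pim1 (0.13) and Stat3 (0.10), the last being the transcription factor on which these cytokines act. The cytokines Il6 (0.27, adjusted p = 0.192) and Il22 (0.07, adjusted p = 0.703) were not called. The count of 6 was 1 without d7_WT_356, 2 without d7_WT_386, 3 without d7_KO_420 and 0 without the 3 highest libraries. Of 14 matrix-degrading enzymes, 7 were higher at higher Lcn2 and 0 lower, namely Mmp8 and Mmp9, which the neutrophil list also holds, and Adam8 (0.57), Mmp3 (0.53), Mmp13 (0.51), Mmp12 (0.50) and Mmp10 (0.47). Against the same background, 0 of 32 interferon-stimulated genes were called. For MHC class II 0 of 7 genes were called, which lies near the background. The median slopes of these lists were, in that order, -0.05 and -0.01. Interferon-stimulated genes had a positive slope in 22 of 32 in WT alone (median 0.04) and in 2 of 32 in KO alone (median -0.14). The KO slope was above the WT slope in 4 of 32, the interaction had an unadjusted p under 0.05 for 2, and its smallest adjusted p was 0.423, so no difference passed the threshold.

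Most called defence genes of the epithelium were higher. Of 21 tested, 7 were higher, 2 lower and 12 not called (background 7.28% higher and 5.01% lower). The count of 2 lower genes lies near that background. With Lcn2 as a rank 3 genes were higher and 1 lower, and with the inflammation list in place of Lcn2 5 and 0. Saa3 ran from 9.15 CPM (lowest) through 33.2 (median) to 156 (highest) in WT and from 4.43 through 38.9 to 182 in KO. Its slope was 0.68 (SE 0.081, adjusted p = 0.000358), and 0.91 in the 11 libraries (adjusted p = 0.390). Also higher were Reg3a (0.49), Nos2, the inducible nitric oxide synthase (0.36), Slpi (0.30), Duoxa2 (0.26), Steap4 (0.22) and Duox2, which makes hydrogen peroxide (0.20). The lectins Reg3b and Reg3g had slopes of 0.25 each but missed the threshold (adjusted p = 0.0560 and 0.111), and Saa1 had 0.05. Reg3g was highest in d7_WT_356, while d7_KO_420, first by Lcn2, ranked 7 of 14.

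The lower pair was Mptx1, a mucosal pentraxin, and Nox1, the NADPH oxidase of colonic epithelium. Mptx1 was at 94.4 CPM in d7_WT_386 and 75.6 in d7_WT_370, at 18.5 in d7_KO_421, and at 8.39 or less in the other 11 (slope -1.05, adjusted p = 0.0110). In 14 day 3 libraries it had a median of 1036 CPM. Nox1 was at 3.83 CPM in d7_KO_420, 10.0 in d7_WT_356 and 8.35 in d7_WT_419, and at 9.09 to 45.0 in the others (slope -0.36, adjusted p = 0.0280). The call of Nox1 was lost without d7_KO_420, without d7_WT_356 and without d7_WT_386 (adjusted p = 0.17, 0.0719 and 0.0901). Without d7_WT_356 alone, the list held 1 higher and 1 lower gene, without d7_KO_420 it held 2 and 1, and without d7_WT_386 it held 3 and 1.

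Genes of dividing cells, stem cells and goblet cells were among those that fell with Lcn2. Of 25 proliferation genes, 0 were higher and 10 lower (background 5.01%), and all 25 had a negative slope. The called genes included the replication helicase subunits Mcm2, Mcm3, Mcm5 and Mcm7 (slopes -0.17, -0.19, -0.21 and -0.18), the thymidylate synthase Tyms (-0.16) and the mitotic kinase Cdk1 (-0.15). Mcm5 was at 12.2 CPM in d7_KO_420, 20.9 in d7_WT_356 and 27.7 in d7_WT_419, within or below the 16.7 to 54.2 of the other libraries. The other 4 were Ccnb2, Birc5, Ube2c and Aurka. Without d7_KO_420 the list held 0 called genes, without d7_WT_356 or d7_WT_386 it held 1, and without d7_KO_366 or d7_KO_421 it held 6.

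Of 18 genes of stem cells and the Wnt pathway, 7 were lower (background 5.01%) and 1, Prom1, was higher (background 7.28%). The Wnt target Axin2 (-0.53), the stem cell receptor Lgr5 (-0.68) and the stem cell factor Ascl2 (-0.85) had the steepest slopes, and Cdca7 (-0.27), Ephb3 (-0.24), Sox9 (-0.16) and Lrig1 (-0.11) were shallower. Ascl2 was low throughout, at 0.0211 to 3.54 CPM. Its lowest value lies below the 0.0495 to 0.119 CPM that 3 counts correspond to. Lgr5 was at 0.157, 0.260 and 0.444 CPM in d7_KO_420, d7_WT_356 and d7_WT_419. It was as low in d7_WT_393 (0.233), d7_WT_361 (0.523) and d7_WT_431 (0.336), libraries of middling Lcn2, and was highest in d7_KO_422 at 9.51, the fourth in the order. With Lcn2 entered as a rank, 0 of these genes were lower, and the same held without d7_KO_420, without d7_WT_356 and without d7_WT_386. The count was 3 without any 1 of d7_KO_366, d7_KO_367, d7_WT_370 and d7_KO_421, and 4 without d7_WT_419 or d7_WT_431.

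Goblet cell genes were lower in 5 of 19 and higher in 0. These 5 were the transcription factors Foxa3 (slope -0.21), Spdef (-0.11) and Creb3l1 (-0.08), the secretory chaperone Agr2 (-0.17) and the peptide Spink4 (-0.18). The mucin Muc2 (-0.01, adjusted p = 0.935) and Tff3 (-0.03, adjusted p = 0.543) were not called. Without d7_KO_420 the count was 0, without d7_WT_356 or d7_WT_386 it was 2, and without d7_WT_419 it was 3. Sct, the hormone secretin, was the 1 lower gene of 17 from enteroendocrine cells (background 5.01%). Its call was lost without d7_KO_420, d7_WT_356 or d7_WT_386.

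**Figure D4:**
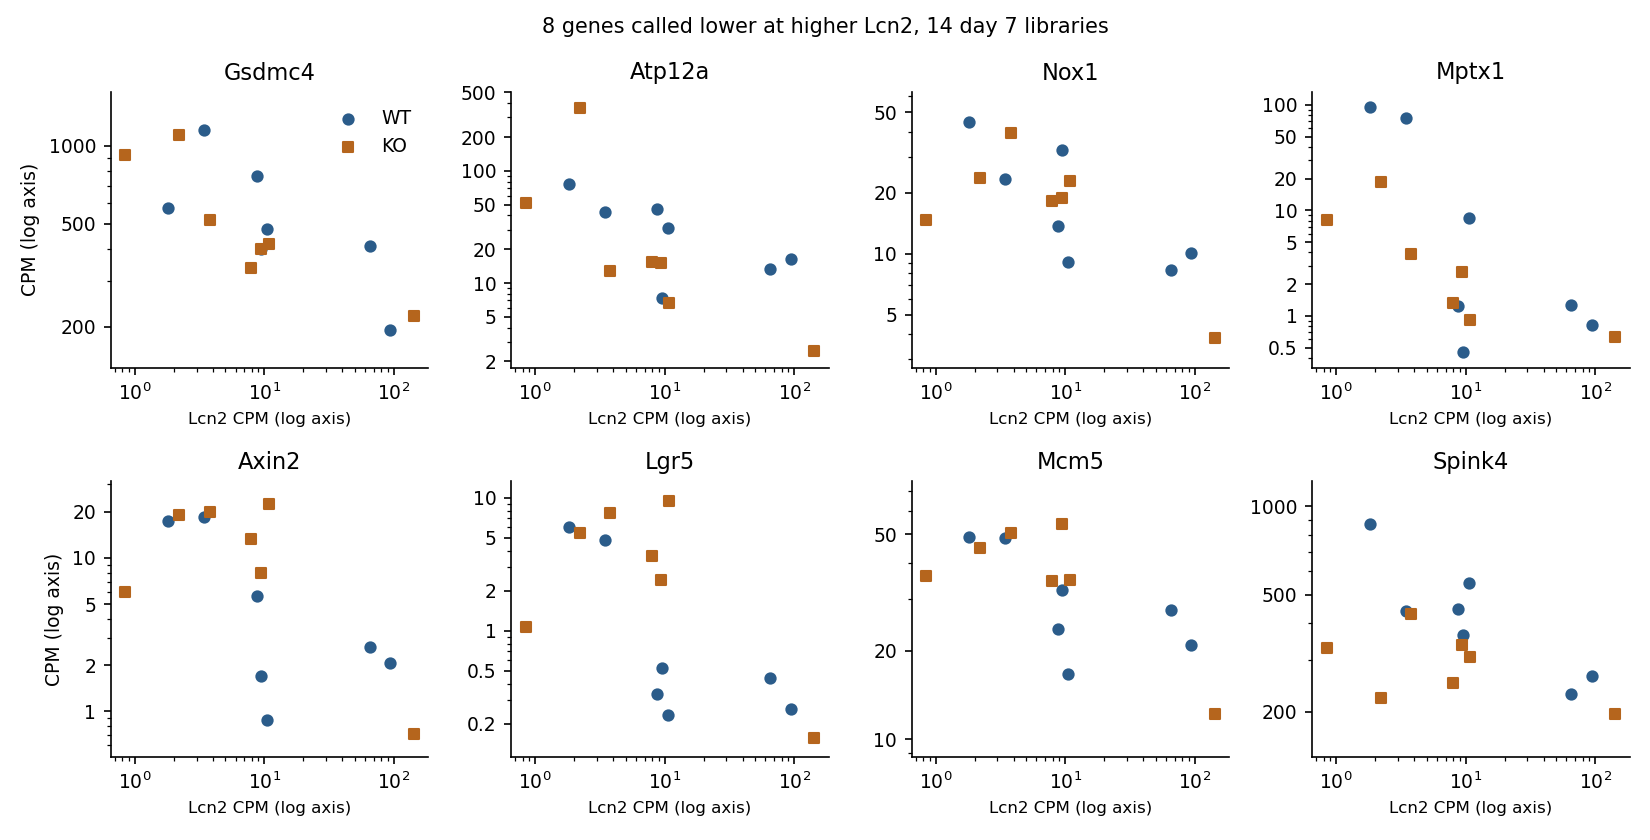
CPM of 8 genes called lower at higher Lcn2 (log y axes) against Lcn2 CPM (log x axes) in the 14 day 7 libraries, WT as blue circles and KO as brown squares. Gsdmc4 declines across the whole range, whereas Lgr5 and Axin2 are low in the 3 highest libraries and in d7_WT_361 and d7_WT_393, at middling Lcn2.

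Transport and barrier genes of surface cells were mixed. Of all genes tested, 7.28% were higher and 5.01% lower. The counts of xenobiotic metabolism, tuft cell and tight junction genes given here lie near those shares. So do the counts of endoplasmic reticulum and ATF4 stress genes and of mitochondrial genome genes. The counts of lower genes among absorptive colonocyte and cell death genes lie near the 5.01% as well. Of 23 genes of absorptive colonocytes, Slc9a3, a sodium-proton exchanger (0.21), Slc51a (0.17) and Clcn2 (0.09) were higher (0 genes without d7_KO_420, 2 without d7_WT_356), and Atp12a, the colonic proton pump, was lower (-0.68, adjusted p = 0.0400). Atp12a was at 2.46 CPM in d7_KO_420 and 360 in d7_KO_421, and its call was lost when any of 7 libraries was left out. Of 33 genes of cell death, Nlrp3 (0.41), Bcl2l11 (0.20), Casp4 (0.15) and Bcl2l1 (0.11) were higher. The count of 4 was 1 without d7_KO_366, d7_WT_356 or d7_WT_386, and 0 without d7_KO_420 or without the 3 highest libraries. The lower ones were 2 gasdermin C genes, Gsdmc4 and Gsdmc2. Gsdmc4 was at 219, 194 and 411 CPM in d7_KO_420, d7_WT_356 and d7_WT_419 and at 337 to 1154 in the others (slope -0.32, adjusted p = 0.00727). With any 1 library left out it was still called. Gasdermin C genes are near-identical neighbours, so how reads were shared among Gsdmc2, Gsdmc4 and Gsdmcl2 is uncertain. Of 28 xenobiotic metabolism genes 2 were higher and 2 lower, of 19 stress genes of the endoplasmic reticulum and ATF4 1 was higher (Slc7a11), of 14 tuft cell genes 1 was higher (Alox5), and of 11 genes of the mitochondrial genome 0 were called (median slope -0.03). A general inflammation list, which shares genes with those above, had 7 of 10 higher, and 4 without d7_WT_356 or d7_WT_386. Tight junction genes had 1 of 16 higher and 1 lower (Cldn15). Genes of fetal-like repair were higher in 5 of 20, with Msln (0.58), Ctgf (0.45), Il33 (0.44) and Plaur (0.26) among them. The count was 2 without d7_WT_356 or without d7_KO_420 and 0 without the 3 highest libraries, where the median slope of the list was -0.02.

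Hk2 itself was not called. In WT its lowest value was 227 CPM, its median 300 and its highest 595, and in KO these were 56.0, 125 and 263. Hk2 was thus still counted in KO libraries, and d7_KO_420 at 263 lay within the WT range. The slope was 0.14 (SE 0.056, adjusted p = 0.111), with 0.16 in WT alone and 0.12 in KO alone. The genotype-by-Lcn2 interaction was -0.02 (unadjusted p = 0.860), so no difference in slope between genotypes was detected. In the 11 libraries without the top 3 the slope turned to -0.08 (adjusted p = 0.950). There Pearson's r between Hk2 and Lcn2, with genotype means subtracted, was -0.204 (permutation p = 0.549, adjusted p = 0.756 over 8 relations) and Spearman's rho was -0.182 (p = 0.594, adjusted p = 0.756). With the 2 libraries farthest from the median Lcn2 left out, r was -0.193. In the 6 KO libraries without d7_KO_420, r was -0.224 (exact permutation p = 0.661, adjusted p = 0.756) and rho -0.0857 (exact permutation p = 0.919, adjusted p = 0.919), and r was 0.958 over the 4 left without the 2 farthest, so it rests on those 2. The 5 WT libraries outside the top 3 are too few for such a test. The slope was 0.10 without d7_WT_356, at 595 CPM, and 0.08 without d7_KO_420.

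At equal Lcn2, the KO minus WT difference of Hk2 was -1.15 log2 units (SE 0.26), in the same direction in all 8 alternative settings and each time a library was left out. Over 15583 genes this gave an edgeR adjusted p of 0.184, and DESeq2 gave 0.00434. Among all genes edgeR called 1 for genotype at equal Lcn2 (0.00642%), with 2726 at an unadjusted p under 0.05, and DESeq2 called 335. The 1 gene was Tdpx-ps1, a pseudogene whose reads may be shared with its parent gene. It had 1.43 to 2.20 CPM in the 7 KO libraries and 0 to 0.287 in the 7 WT libraries, with no overlap.

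**Figure D5:**
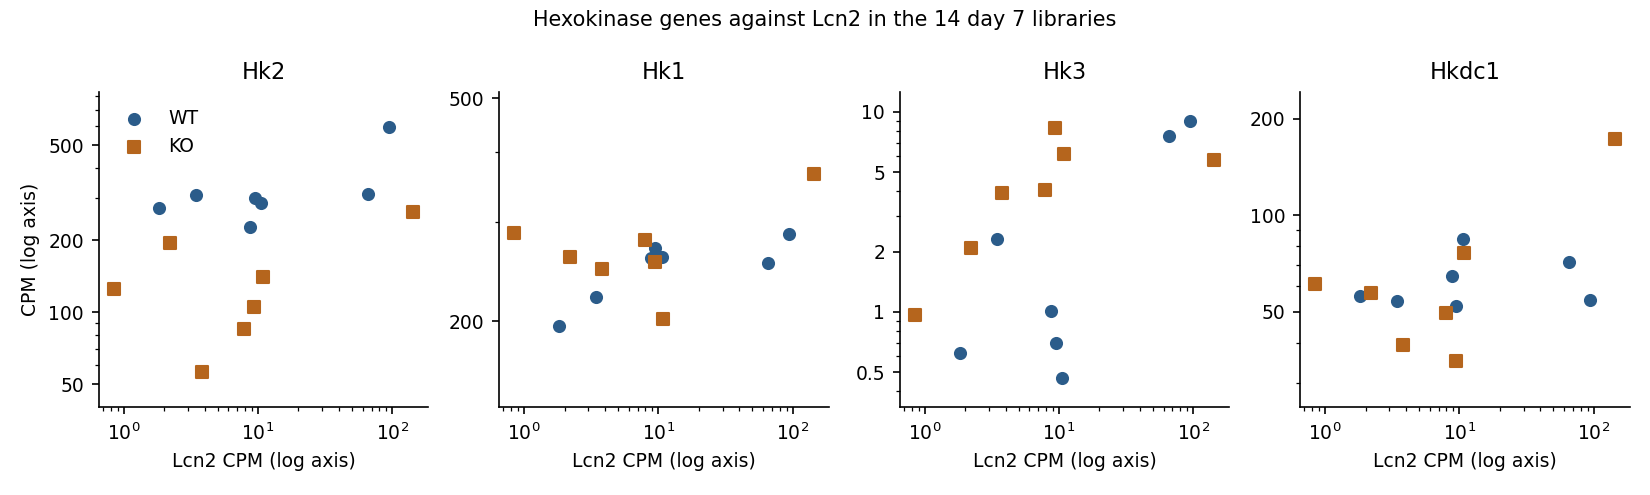
CPM of Hk2, Hk1, Hk3 and Hkdc1 (log y axes) against Lcn2 CPM (log x axes) in the 14 day 7 libraries, WT as blue circles and KO as brown squares. Hk2 shows the WT points above the KO points at most levels of Lcn2 with d7_WT_356 highest at 595 CPM, and Hk3 spans 0.466 to 8.98 CPM.

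Among the hexokinase genes, Hk3 was called. Hk3, the isoform of myeloid cells, was at 5.76, 8.98 and 7.59 CPM in d7_KO_420, d7_WT_356 and d7_WT_419, and between 0.466 and 8.26 in the others, so the sets overlapped. Its slope was 0.51 (SE 0.12, adjusted p = 0.0220), and the call was lost without d7_WT_356 (adjusted p = 0.0787) and without d7_WT_386 (0.0652). Over the 11 libraries r was 0.552 (permutation p = 0.0768, adjusted p = 0.205) and rho 0.491 (p = 0.127, adjusted p = 0.254), and r fell to 0.114 without the 2 farthest. In the 6 KO libraries r was 0.959 (exact permutation p = 0.00417, adjusted p = 0.0333) and rho 0.943 (exact permutation p = 0.0167, adjusted p = 0.0667), and r was 0.688 over 4 libraries without the 2 farthest. Hkdc1 (0.16, adjusted p = 0.0640) and Hk1 (0.06, adjusted p = 0.113) were not called. Without d7_KO_420 the slope of Hkdc1 was 0.0095 (adjusted p = 0.935) and that of Hk1 was 0.029 (adjusted p = 0.600), while Hkdc1 was called without d7_KO_368 (adjusted p = 0.0459) and Hk1 without d7_KO_423 (adjusted p = 0.0475). Hkdc1 was highest in d7_KO_420 at 173 CPM and at 35.2 to 84.3 in the others. The genes Hk1, Hk2 and Hk3 each overlap another gene on the opposite strand, and counting ignored strand.

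Among 20 other genes of glycolysis tested, 4 were higher: the glucose carriers Slc2a3 (0.54) and Slc2a1 (0.16), the lactate carrier Slc16a3 (0.29) and the regulator Pfkfb3 (0.40). Eno3, an enolase, was lower (-0.35), a call lost without d7_WT_356, d7_WT_386, d7_WT_419 or d7_KO_421. Without the 3 highest libraries 0 genes of the list were called. The median slope of the list was 0.04. Slc2a3 was at 8.81 to 20.3 CPM in the 3 highest libraries and 1.16 to 3.93 in the other 11. Hypoxia genes were higher in 5 of 16: Adm (0.23), Egln3 (0.20), Slc2a1 (0.16), Ndrg1 (0.16) and Ero1l (0.12). That count was 0 with Lcn2 as a rank, without d7_KO_420 and without the 3 highest libraries, 1 without d7_WT_356, 2 without d7_WT_386, and 3 without any 1 of d7_WT_361, d7_KO_366, d7_KO_367, d7_WT_370 and d7_KO_421. For fatty acid oxidation and ketogenesis 1 of 25 was called higher (Acadl, 0.09), against a background of 7.28%.

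Genes of oxidative phosphorylation, the respiratory chain of mitochondria, had mostly negative slopes in WT alone and shallow slopes of both signs in KO alone. With genotype held equal, 0 of 74 genes were called, against 12.3% of all genes tested, and the median slope was -0.04. In WT alone 1 of 74 slopes was positive (median -0.13), and in KO alone 54 were (median 0.01). The KO slope was above the WT slope in 73 of 74, against 7767 of 15583 over all genes. For 59 of the 74 the interaction had an unadjusted p under 0.05, but its smallest adjusted p was 0.417 and edgeR called 0 genes overall (1732 unadjusted), so the difference did not pass the threshold. Genes of the mitochondrial genome had the KO slope above the WT slope in 10 of 11, 9 of them at an unadjusted p under 0.05, with the same smallest adjusted p of 0.417. These genes vary together and are not independent. The mean log2 CPM of the oxidative phosphorylation list was 7.93 in d7_WT_386 and 7.66 in d7_WT_431, and 6.98 to 7.36 in the other libraries. Genes of the mitochondrial genome summed to 245340 CPM in d7_WT_386, and the next highest sum was 159680 in d7_KO_420. d7_WT_386 also had the fewest counts, 25.2 M, of 25.2 to 60.6 M across day 7.

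Ranked by likeness to Lcn2 among well-expressed genes (the partial correlation over the 14 libraries with genotype held equal), the first 10 included Chil3, S100a8, Retnlg, Tgfbi, Il1r2, Hmox1, S100a9, Cd14 and Uvrag. Over the 11 lower libraries the same measure was between 0.756 and 0.969 for the 10. The list mixes steep and shallow genes. Uvrag, which takes part in autophagy, had a slope of 0.12. Hmox1, which breaks down haem, was at 5.07 CPM in d7_WT_386 and 39.3 in d7_KO_420 (slope 0.40). Tgfbi, a matrix protein, had a slope of 0.44 and was at 90.5 to 122 CPM in the 3 highest libraries and 14.5 to 68.9 in the others. Steep genes outside the lists above were Hp (0.66), Ptgs2 (0.54), Plat (0.56) and Pla2g7 (0.52), and on the falling side the heat-shock genes Hspa1a (-0.73) and Hspa1b (-0.70), Cnn3, Tnni1 (-0.35 each), Sycn (-0.31), Kcne3 (-0.29), Ckb (-0.29) and Uros (-0.25). Of 40 genes that the naming rule and the hexokinase list gave and that were called, 21 stayed called whichever single library was left out. Among the steep genes just named, only Hp, Pla2g7 and Sycn were in that set. Without d7_KO_420, 25 of the 40 were still called, and without d7_WT_356 or d7_WT_386, 26 each. Those with the smallest p among falling genes were Cbs (-0.15), Hes6 (-0.19), Arhgef38 (-0.16), Ptms (-0.10) and Gsdmc4.

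At day 3 Lcn2 was too low to order the animals. With all 15 libraries 255 genes were higher (1.65%) and 116 lower (0.75%), and without the library labelled d3_KO_345 there were 0, with 1902 at an unadjusted p under 0.05. That library had the highest Lcn2 of day 3 on 46 counts, and its Hk2, 440 CPM, was above all other day 3 libraries (70.4 to 227), against its label.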

How the data were processed

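RNA was sequenced as paired-end reads from stranded mRNA libraries (TruSeq, NovaSeq), per the labels' protocols. The deposited files hold raw read counts per gene that the authors made with featureCounts, version 1.6.2 per the file headers and 1.5.2 per the submitters' processing notes, which also name Trim Galore, STAR and build GRCm38. Per the file headers strand was ignored, so overlapping genes on opposite strands cannot be separated. The 76 files hold 2 lanes for each of 38 libraries, and lanes were summed over 46078 genes. Day 7 libraries had 25.2 to 60.6 M counts; 3 counts correspond to 0.0495 to 0.119 CPM, which covers counting error only. Each library is 1 animal, so p-values measure the spread among these animals.

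Genes were filtered with filterByExpr, scaled by TMM, and tested with edgeR 4.0.16 (R 4.3.3, limma 3.58.1) by the quasi-likelihood test, with genotype and log2 CPM of Lcn2 (prior count 2) as terms. Lcn2 itself was left out. Fits were tested on simulated data. DESeq2 1.42.0, other filters and scalings, and leaving out each library were alternatives. The fit without the 3 libraries of highest Lcn2 was chosen after seeing the data. The members and the 33 lists (614 genes) were chosen with earlier results of these data known. Named genes are the 15 with the largest slope in each direction at a mean log2 CPM of at least 3, the 5 with the smallest p in each direction, the 10 most alike to Lcn2, those called for genotype, the hexokinases, and list members. Il36a and Il36rn were not matched, and Gsdme and Il36g were matched as Dfna5 and Il1f9. Libraries of day 0 were not analysed here, and a few genes of the lists are not reported here.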

Additional observations from a re-analysis of the deposited data

Results flagged for a closer look

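For 35 genes, the 7 libraries of each genotype at day 7 were searched for a library far from the others by Dixon's test (critical value 0.568). Of 70 sets, 7 held such a library. Chance alone gives about 1 in 20, but the genes were chosen with their values known, so that rate does not apply to them. In 6 of the 7 the library was d7_KO_420, the one of highest Lcn2. Many of the genes were printed because they follow Lcn2, so this describes their shape and tests nothing. The log2 CPM of d7_KO_420 was the highest among KO libraries for Ngp (7.53, the others -3.58 to 0.54), Il1r2 (6.56, the others 1.05 to 3.29) and the glucose carrier Slc2a3 (4.35, the others 0.51 to 1.99). It was the lowest for Axin2 (-0.41, the others 2.59 to 4.49), Nox1 (1.95, the others 3.88 to 5.30) and the helicase subunit Mcm5 (3.61, the others 5.12 to 5.76). The remaining one was Hk2 in d7_WT_356, at 9.22 against 7.83 to 8.28 in the other WT libraries.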

How the results depend on the processing

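The count of 1915 called genes (1135 higher, 780 lower) depended on a few libraries and on the test. Leaving out 1 library gave 273 to 2428 calls (240 to 1253 higher, 33 to 1175 lower): 273 without d7_KO_420, 301 higher and 50 lower without d7_WT_356, 473 without d7_WT_386 and 1083 without d7_KO_366, and lower calls were 514 without d7_KO_421. It was 3196 with DESeq2's Wald test (1625 lower), 1222 with no filter (384 lower), 897 with the rank of Lcn2 (591 and 306), 539 with the inflammation list in place of Lcn2 (499 and 40), 97 at an absolute slope of at least 0.5 (88 and 9), 38 in WT alone (37 and 1), 33 in KO alone (33 and 0), 37 without the 2 libraries farthest from the median of Lcn2 (37 and 0), 2 without the 3 highest (2 and 0) and 0 with the neutrophil list as covariate. These fits on fewer libraries also have less power. No paired analysis was possible because the animal numbers are not shared between groups.

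For Hk2 the slope ranged from 0.08 to 0.17 with 1 library left out, and turned negative without the 2 farthest libraries (-0.030), without the 3 highest (-0.085) and with the neutrophil covariate (-0.36). With the neutrophil covariate the slope changed sign, with no call, for Il1r2 (-0.37), S100a9 (-0.33), Hbb-bs (-0.13), Il1a (-1.03), Hp (-0.30), Trem1 (-0.80), Adam8 (-0.63), Cxcl2 (-0.92), Ptgs2 (-1.35), Hmox1 (-0.12), Cd14 (-0.049), Hk3 (-0.56), Nox1 (0.088), Cbs (0.059), Ptms (0.0032) and Tdpx-ps1 (0.0025). Il1r2, S100a9 and Trem1 are themselves in the neutrophil list, so the covariate contains them and their change of sign tests nothing. The Hk2 interaction ranged from -0.26 to 0.11 with 1 library left out, and turned positive without d7_WT_356 (0.11), d7_KO_421 (0.03) and d7_KO_423 (0.02). The cause was not tested.

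Genotype calls at equal Lcn2 were 335 with DESeq2, 0 at a mean CPM of at least 1, and 1 to 2 with 1 library left out. Interaction calls were 1 with DESeq2 and 0 to 266 with 1 library left out, 266 being without d7_WT_370. At day 3 DESeq2 called 1245 genes (723 and 522), lane 1 alone 5 (4 and 1), the rank of Lcn2 7 (4 and 3), and no filter left 76 lower. With 1 library left out there were 0, without the library labelled d3_KO_345, to 1948, without d3_WT_381 (0 to 1059 higher, 0 to 889 lower).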

Other observations

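Some genes called lower with Lcn2, and Ngp, also split the day 7 libraries into sets that do not overlap. In d7_KO_420, d7_WT_356, d7_WT_419, d7_WT_393, d7_WT_361 and d7_WT_431 the heat-shock gene Hspa1b was at 4.71 to 9.68 CPM, against 67.8 to 402 in the other 8 libraries, and Hspa1a was at 1.10 to 3.80 against 19.8 to 131. The same 6 libraries had Lgr5 at 0.157 to 0.523 CPM against 1.06 to 9.51, Ascl2 at 0.0211 to 0.224 against 0.281 to 3.54, and Axin2 at 0.707 to 5.62 against 5.99 to 22.5. Ngp was at 5.26 to 185 CPM in the 6 and 0.0185 to 1.41 in the 8. The lowest values of Ascl2 and Ngp lie below the 0.0495 to 0.119 CPM that 3 counts correspond to. By Lcn2 these 6 libraries rank 1, 2, 3, 5, 6 and 8 of 14. They were picked after their values were seen, 5 of the 6 are WT, and the labels give no batch within day 7, so the split is given as values with no test. How many of all genes tested split the libraries in the same way was not counted, so whether the split is unusual is not known.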
